A study of Mus musculus with 16 samples.

Results

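Genes of the endoplasmic reticulum (ER) stress response, 10 in number and chosen by name, were followed in mouse hearts after social defeat. They were Hspa5, Hsp90b1, Pdia4, Sdf2l1, Herpud1, Xbp1, Atf4, Ddit3, Trib3 and Chac1, and all 10 were on the array, on 11 of its 55681 probes that are not controls and among 22763 features tested. The hearts came from C57BL/6 mice in a model of posttraumatic stress disorder, in which a mouse stayed in a mesh box within an aggressor's cage and was attacked by the aggressor in short bouts. The hearts fell into 4 groups of 4, 1 heart to an array: controls, boxed in the same way but with no aggressor in the cage, and mice with 1 (T1R1), 2 (T2R1) or 3 (T3R1) days of stress, each followed by 1 day of rest. The labels place the controls beside the 2-day arm, so no controls of the other arms were measured here, and the general protocol text names longer exposures than the group labels, which were followed. Total RNA of whole heart tissue was labelled with Cy3 and read on 1-colour Agilent arrays.

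The ER stress response, or unfolded protein response, starts when unfolded proteins gather in the lumen of the ER and 3 membrane sensors, PERK, IRE1 and ATF6, are released from the chaperone BiP. ATF6 and the spliced form of XBP1 raise chaperones, disulfide isomerases and degradation factors of the ER. PERK phosphorylates eIF2α, which slows translation in general while favouring that of ATF4, and ATF4 in turn raises CHOP (Ddit3) and genes of amino acid supply and cell death. In cardiac muscle this response is known from ischaemia, pressure overload and heart failure. The array measures transcripts only, so the splicing of Xbp1, the translation of Atf4 and the phosphorylation of eIF2α were not seen here.

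Values are log2 signals relative to the 75th percentile of the same array. Differences between groups were tested with limma over all 22763 features, and a gene was called where its Benjamini-Hochberg adjusted p was under 0.05. The control and T3R1 arrays were on slide 1 and the T1R1 and T2R1 arrays on slide 2, so T3R1 against control and T2R1 against T1R1 lie within a slide, while in every other comparison group and slide cannot be told apart. Control replicate 1 stood apart from the other controls. Its 75th percentile was 550.7 scanner units against 257.6 to 407.9 on the other 15 arrays, and its mean correlation over all tested features was 0.970 with its own group and 0.988 with the T3R1 arrays. Calls named below that change without it are given both ways. The labelled tissue was borne out by its markers: all 6 cardiomyocyte markers (Myh6, Tnnt2, Tnni3, Actc1, Myl2 and Ryr2) were well above background on all 16 arrays. In whole tissue, fewer cells of a type and less RNA per cell cannot be told apart.

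None of the 10 genes was called in T1R1, T2R1 or T3R1 hearts against control hearts, and at an unadjusted limma p under 0.05 there were 1 (Chac1), 0 and 1 (Pdia4), beside 25.9%, 30.9% and 22.4% of all features. In the same tests 9.85% of all features were called in T1R1 against control, 18.4% in T2R1 against control and 0.694% in T3R1 against control. Between stress groups none of the 10 was called in T2R1 against T1R1, where 0% of features were called and 7.83% (1782 features) had an unadjusted limma p under 0.05, or in T3R1 against T1R1, where 22.9% were called and 3 of the 10 (Hsp90b1, Pdia4 and Chac1) had an unadjusted limma p under 0.05, as had 36.5% of all features. The gene Pdia4 alone was called in T3R1 against T2R1, where 26.9% of features were called. An F test over the 4 groups called none of the 10, against 26.9% of all features, and its lowest adjusted p-values among them were 0.101 for Pdia4 and 0.108 for Chac1. The median log2 difference of the 10 genes was 0.09 in T1R1, 0.01 in T2R1 and 0.07 in T3R1 against control, beside -0.01, 0.02 and -0.08 over all features.

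**Figure D1:**
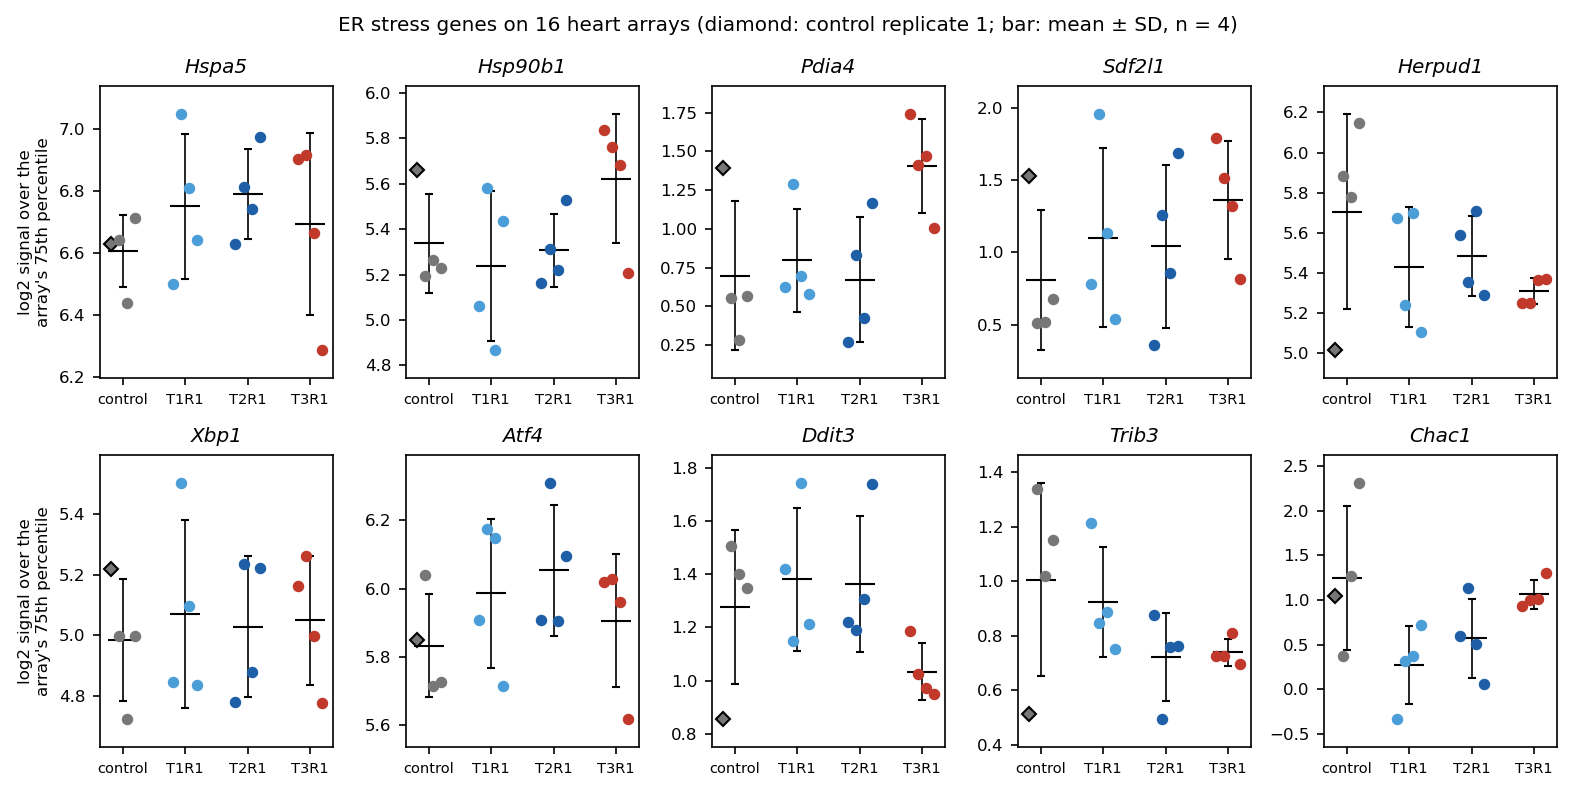
Log2 signal over each array's 75th percentile (vertical axis, a scale of its own for each gene) for the 10 ER stress genes in control, T1R1, T2R1 and T3R1 hearts. Points are single hearts, bars the mean ± SD of 4 hearts and the diamond control replicate 1, which lies above the other 3 controls in Hsp90b1, Pdia4, Sdf2l1 and Xbp1 and below them in Herpud1, Ddit3 and Trib3.

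Promoters of the members were searched for the response elements known for this pathway. The ER stress response element (ERSE) was searched as CCAAT, 9 bases of any kind and CCACG, the element ERSE-II as ATTGG, 1 base and CCACG, and the C/EBP-ATF response element (CARE), which binds ATF4 with C/EBP partners, as TGATG, 1 base and AA, each on both strands. The RefSeq table of build GRCm38.p6 held a promoter of 300 bases (250 before the start and 50 after it) for all 10 genes. Hspa5 and Hsp90b1 held ERSE, as did 0.119% of the 32851 promoters of the table. Herpud1 held ERSE-II, found in 0.0365% of promoters. Herpud1, Chac1 and Trib3 held CARE, found in 3.97% of promoters. No match of these letters lay in the windows of Pdia4, Sdf2l1, Xbp1, Atf4 and Ddit3.

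The 250 bases before the start are printed for the members with a match there, 5′ to 3′ on the strand of the gene, to show where the elements lie in genes of each arm. Capitals mark the matches. Hspa5 (chr2:34771840-34772089, + strand) has ERSE from position -65 to -47, counted from the start. Hsp90b1 (chr10:86705445-86705694, - strand) has ERSE from -212 to -194 and, on the opposite strand, from -107 to -89. Herpud1 (chr8:94386179-94386428, + strand) has CARE on the opposite strand from -112 to -105 and ERSE-II from -52 to -42. Chac1 (chr2:119350992-119351241, + strand) has CARE on the opposite strand from -193 to -186. A match is a description of the letters and does not show binding.
Hspa5: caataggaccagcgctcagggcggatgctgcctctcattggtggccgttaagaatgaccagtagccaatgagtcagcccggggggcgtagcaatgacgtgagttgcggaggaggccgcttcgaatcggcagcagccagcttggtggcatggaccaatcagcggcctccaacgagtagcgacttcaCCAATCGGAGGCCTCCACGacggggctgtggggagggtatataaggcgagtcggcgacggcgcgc
Hsp90b1: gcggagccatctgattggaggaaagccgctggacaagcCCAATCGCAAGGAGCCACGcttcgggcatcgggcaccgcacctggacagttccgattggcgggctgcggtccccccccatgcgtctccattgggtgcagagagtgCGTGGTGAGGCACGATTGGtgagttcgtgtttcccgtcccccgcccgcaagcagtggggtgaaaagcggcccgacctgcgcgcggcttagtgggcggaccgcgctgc
Herpud1: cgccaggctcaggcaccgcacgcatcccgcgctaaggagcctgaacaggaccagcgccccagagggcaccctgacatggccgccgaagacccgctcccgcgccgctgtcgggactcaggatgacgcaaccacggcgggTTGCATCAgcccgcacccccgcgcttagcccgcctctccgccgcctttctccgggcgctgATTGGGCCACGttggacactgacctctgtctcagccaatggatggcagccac
Chac1: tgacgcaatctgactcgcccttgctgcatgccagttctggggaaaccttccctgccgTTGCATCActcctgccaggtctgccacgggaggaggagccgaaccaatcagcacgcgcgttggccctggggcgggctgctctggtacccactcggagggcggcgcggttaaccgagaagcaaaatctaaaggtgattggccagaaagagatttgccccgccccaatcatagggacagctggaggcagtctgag

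The chaperone arm opens with Hspa5, which encodes BiP, the main Hsp70 of the ER lumen and the partner that holds the sensors inactive. Its log2 values were 6.63, 6.64, 6.44 and 6.71 in control hearts, 6.50, 7.05, 6.81 and 6.64 in T1R1, 6.63, 6.81, 6.74 and 6.98 in T2R1, and 6.90, 6.92, 6.67 and 6.29 in T3R1 hearts. All 4 groups overlapped. The differences from control were 0.14 ± 0.15 in T1R1, 0.18 ± 0.15 in T2R1 and 0.09 ± 0.15 in T3R1 (log2, SE, n = 4 each), with 95% intervals that together ran from -0.23 to 0.50. The interval in T3R1 was -0.23 to 0.40. Hsp90b1 encodes GRP94, the Hsp90 of the ER, and had log2 values of 5.66, 5.20, 5.27 and 5.23 in control, 5.06, 5.58, 4.87 and 5.44 in T1R1, 5.16, 5.31, 5.22 and 5.53 in T2R1, and 5.84, 5.76, 5.68 and 5.21 in T3R1 hearts. In T3R1, 3 hearts lay above all hearts of the other groups, and the lowest T3R1 heart was among the low controls. The difference in T3R1 was 0.28 ± 0.17 against control (adjusted p = 0.343, limma) and 0.39 ± 0.17 against T1R1 (adjusted p = 0.126).

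Pdia4 encodes ERp72, a protein disulfide isomerase of the ER that forms and rearranges disulfide bonds. The log2 values of Pdia4 were 1.39, 0.55, 0.28 and 0.57 in control hearts, 0.62, 1.29, 0.69 and 0.58 in T1R1, 0.27, 0.83, 0.42 and 1.16 in T2R1, and 1.74, 1.41, 1.47 and 1.01 in T3R1 hearts. Of the 4 T3R1 hearts, 3 were above every heart of the other groups, the lowest T3R1 heart was not, and the groups overlapped. The mean was 1.41 ± 0.30 in T3R1, against 0.67 ± 0.40 in T2R1 (SD, n = 4 each), a difference of 0.73 ± 0.26 or 1.66-fold (adjusted p = 0.0469, limma). This call is lost with quantile scaling (adjusted p = 0.0549), without the filter on dim probes (0.0747) and on leaving out any of 11 of the 16 arrays in turn, where the adjusted p of the difference reached 0.135 at most. Against control the T3R1 difference was 0.71 ± 0.26 or 1.63-fold (95% interval 0.16 to 1.26) and did not pass (adjusted p = 0.132). T1R1 and T2R1 differed from control by 0.10 ± 0.26 and -0.03 ± 0.26.

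Sdf2l1 encodes a component of the BiP-containing ER chaperone complex. Single hearts gave Sdf2l1 log2 values of 1.53, 0.51, 0.52 and 0.68 in control, 0.78, 1.96, 1.13 and 0.54 in T1R1, 0.36, 1.26, 0.86 and 1.69 in T2R1, and 1.79, 1.52, 1.32 and 0.82 in T3R1 hearts. The hearts within T1R1 and within T2R1 differed from each other by more than the control hearts did, and the differences from control were 0.29, 0.23 and 0.55 in T1R1, T2R1 and T3R1, each with an SE of 0.35. Xbp1 encodes the transcription factor whose mRNA is spliced by IRE1. For Xbp1 the log2 values were 5.22, 5.00, 4.72 and 5.00 in control, 4.85, 5.50, 5.10 and 4.84 in T1R1, 4.78, 5.24, 4.88 and 5.22 in T2R1, and 5.16, 5.26, 5.00 and 4.78 in T3R1 hearts. Its group means lay between 4.98 and 5.07, and each difference from control had an SE of 0.17.

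Herpud1 encodes a membrane protein that helps to carry unfolded proteins out of the ER for degradation. Herpud1 had log2 values of 5.02, 5.88, 5.78 and 6.15 in control hearts, 5.67, 5.24, 5.70 and 5.11 in T1R1, 5.59, 5.35, 5.71 and 5.29 in T2R1, and 5.25, 5.25, 5.37 and 5.37 in T3R1 hearts. Every stressed heart lay below control replicates 2, 3 and 4, and control replicate 1 lay below all of them. Of all features, 30.8% in T1R1, 44.8% in T2R1 and 40.6% in T3R1 likewise did not overlap those 3 controls. The T3R1 mean was 5.31 ± 0.07, against 5.71 ± 0.49 in control hearts (SD, n = 4 each), a difference of -0.40 ± 0.20 (SE) that did not pass (adjusted p = 0.268, limma).

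In the ATF4 arm, Atf4 encodes the transcription factor at its head and was read by a pair of probes that gave unlike results. The brighter probe, which stands for the gene, had log2 values of 5.85, 6.04, 5.71 and 5.73 in control, 5.91, 6.17, 6.15 and 5.71 in T1R1, 5.91, 6.31, 5.91 and 6.09 in T2R1, and 6.02, 6.03, 5.96 and 5.62 in T3R1 hearts. Its differences from control were 0.15, 0.22 and 0.07 in T1R1, T2R1 and T3R1 (SE 0.14 each). The second probe had 0.57, 0.61, 0.52 and 0.54 in control, 0.87, 1.22, 1.18 and 0.86 in T1R1, 0.78, 1.18, 0.67 and 1.09 in T2R1, and 1.01, 0.97, 0.42 and 0.51 in T3R1 hearts. On this probe all T1R1 and T2R1 hearts lay above all controls, while 13.9% and 24.5% of all features with a value on every array were likewise without overlap in T1R1 and in T2R1 against control. The differences on this probe were 0.47 ± 0.15 in T1R1 (adjusted p = 0.0667, limma) and 0.37 ± 0.15 in T2R1 (adjusted p = 0.113), and neither passed. These values came from a separate fit with 1 row per kept probe, so their adjustment ran over probes and not over the 22763 features. Their unadjusted limma p-values were 0.00763 and 0.0288, while counts of members use the brighter probe alone. On build mm9, the array design places the second probe at chr15:80086639-80086698 and the brighter one at chr15:80087902-80087961, both on the + strand under 1 RefSeq transcript.

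Ddit3 encodes CHOP, the factor best known for linking lasting ER stress to cell death. Its log2 values were 0.86, 1.51, 1.40 and 1.35 in control hearts, 1.42, 1.15, 1.74 and 1.21 in T1R1, 1.22, 1.19, 1.31 and 1.74 in T2R1, and 1.19, 1.03, 0.97 and 0.95 in T3R1 hearts. All T3R1 hearts lay just below all T2R1 hearts, and 37.9% of all features had groups that did not overlap in that comparison. The difference was -0.33 ± 0.17 against T2R1 (adjusted p = 0.154, limma) and -0.24 ± 0.17 against control (adjusted p = 0.392). Trib3 encodes a pseudokinase that is induced by ATF4 and CHOP. The hearts had Trib3 log2 values of 0.51, 1.34, 1.02 and 1.15 in control, 1.21, 0.85, 0.89 and 0.75 in T1R1, 0.88, 0.49, 0.76 and 0.76 in T2R1, and 0.72, 0.73, 0.81 and 0.70 in T3R1 hearts. All T2R1 and T3R1 hearts were below control replicates 2, 3 and 4 and, with the exception of T2R1 replicate 2, above control replicate 1. Of all features, 44.8% in T2R1 and 40.6% in T3R1 did not overlap those 3 controls. The differences from control were -0.08 in T1R1, -0.28 in T2R1 and -0.27 in T3R1 (SE 0.15 each), and none passed.

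Chac1 encodes an enzyme that breaks down glutathione and is a late target of the ATF4 and CHOP branch. For Chac1 the log2 values were 1.05, 0.37, 1.27 and 2.31 in control hearts, -0.33, 0.32, 0.38 and 0.72 in T1R1, 0.60, 1.13, 0.50 and 0.06 in T2R1, and 0.93, 1.00, 1.01 and 1.31 in T3R1 hearts. The controls spread more widely than any stressed group, and all T3R1 hearts were above all T1R1 hearts. The mean was 0.27 ± 0.44 in T1R1, against 1.25 ± 0.80 in control hearts (SD, n = 4 each), a difference of -0.98 ± 0.34 or 1.97-fold lower (95% interval -1.70 to -0.25). That difference did not pass over all features (adjusted p = 0.0827, limma). Without control replicate 2, the lowest control, it was -1.27 in T1R1 (adjusted p = 0.0217) and -0.97 in T2R1 (adjusted p = 0.0497). Chac1 was 0.79 ± 0.34 higher in T3R1 than in T1R1 without passing (adjusted p = 0.105), where 26.2% of features had groups that did not overlap.

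**Figure D2:**
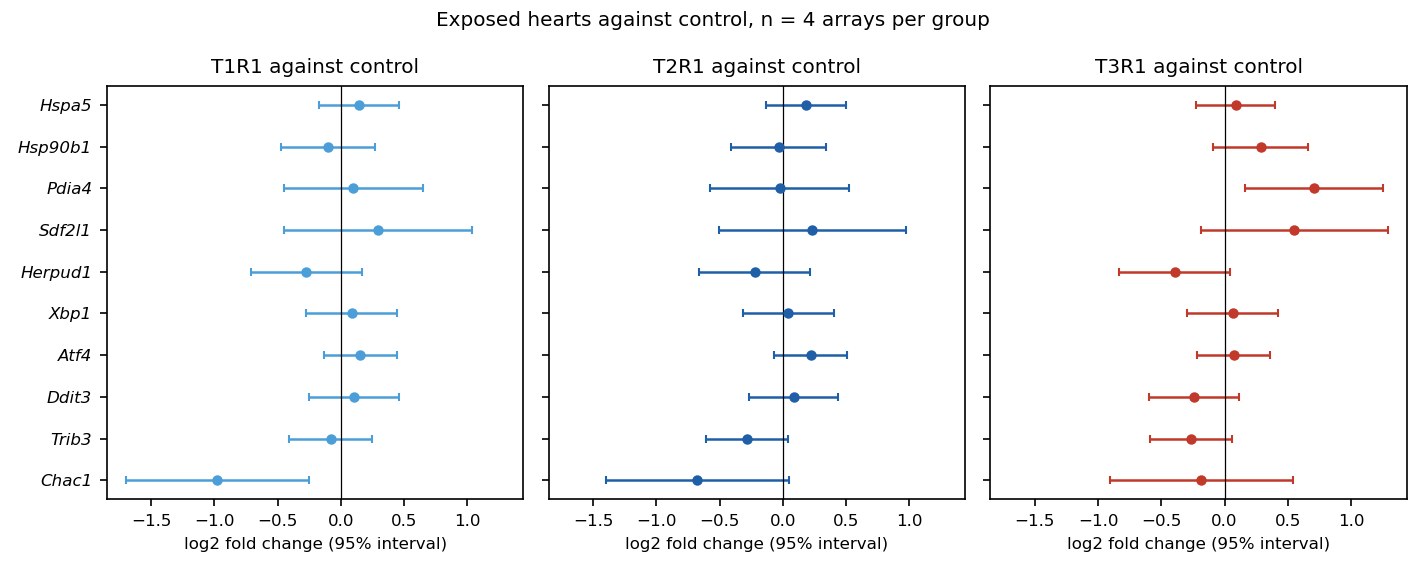
Log2 fold change (horizontal axis) of the 10 ER stress genes in T1R1, T2R1 and T3R1 hearts against control hearts, with 95% intervals, 4 arrays per group. The intervals of Chac1 in T1R1 (-1.70 to -0.25) and of Pdia4 in T3R1 (0.16 to 1.26) leave out 0, and neither gene passed the adjusted threshold.

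Control replicate 1 decided several of these values. With the other 3 controls, 3 of the 10 genes were called in T3R1 against control, where 29.4% of all features then were. Pdia4 rose by 0.94 ± 0.23 or 1.92-fold (adjusted p = 0.00924, limma), as its mean was 1.41 ± 0.30 in T3R1 hearts and 0.47 ± 0.16 in the 3 controls. Herpud1 fell by 0.62 ± 0.15 (adjusted p = 0.00931) and Trib3 by 0.43 ± 0.12 (adjusted p = 0.0165). The differences of Hsp90b1 (0.39 ± 0.18), Sdf2l1 (0.79 ± 0.35) and Ddit3 (-0.38 ± 0.15) did not pass, with adjusted p-values of 0.112, 0.102 and 0.0729. Hspa5, Xbp1 and Atf4 differed from the 3 controls by 0.09, 0.14 and 0.08. In 5 of the 10 genes, Pdia4 and Sdf2l1 (all T3R1 hearts higher) and Herpud1, Ddit3 and Trib3 (all lower), the T3R1 hearts did not overlap the 3 controls, as in 40.6% of all features.

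Against the same 3 controls, Herpud1 fell in both shorter exposures, by 0.51 ± 0.15 in T1R1 (adjusted p = 0.0399, limma) and by 0.45 ± 0.15 in T2R1 (adjusted p = 0.0487). Trib3 fell by 0.45 ± 0.12 in T2R1 (adjusted p = 0.0187). No other member was called in T1R1 or T2R1 then, beside 17.8% and 24.4% of all features. Pdia4 was called in T3R1 against T1R1 as well, where 31.3% of features were (0.61 ± 0.21, adjusted p = 0.0448, with an SE of 0.26 in the fit that held all 16 arrays), and it was called in T3R1 against T2R1 at adjusted p = 0.0169, where 36.6% were. All comparisons with control share the same control hearts. These calls rest on leaving out an array that was known to stand apart, so the values with 4 controls and with 3 controls are both given.

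**Figure D3:**
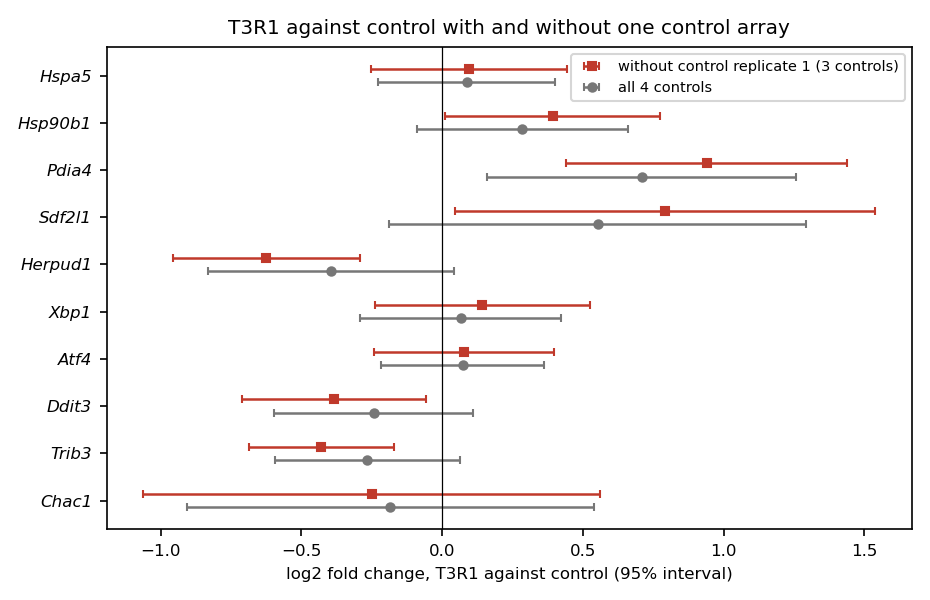
Log2 fold change (horizontal axis) of the 10 ER stress genes in T3R1 against control hearts with 95% intervals, from the fit without control replicate 1 (squares, 3 controls) and from the fit with all 4 controls (circles). Pdia4 was 0.94 without that array and 0.71 with it, and Herpud1 -0.62 without it and -0.40 with it.

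Markers of other heart cells differed in the same comparisons. Of 6 fibroblast markers 4 were called higher in T3R1 than in control hearts and none lower, with a list median of 2.06 beside -0.08 over all features. Their summed signal, in units of the 75th percentile of the array, was 544 to 692 in T3R1 and 282 to 494 in control hearts, and the 494 belonged to control replicate 1, which left 282 to 309 on the other 3 controls. Col1a1, Col1a2, Col3a1 and Postn were called, while Pdgfra (0.10) and Dcn (-0.09) were not. Without control replicate 1, all 4 macrophage markers were called higher and 4 of the 6 cardiomyocyte markers lower in T3R1 against control, where none of either list was called with it. The 4 macrophage markers summed to 52.0 to 61.1 in T3R1 and 31.3 to 65.2 in control hearts, with 65.2 again in control replicate 1. The 6 cardiomyocyte markers summed to 3433 to 5104 in T3R1 and 2840 to 6319 in control hearts, lowest in control replicate 1. Of 6 markers of plasma cells, which have a large secretory ER, 4 were tested and none was called in T3R1 against control, at a sum of 1.16 to 1.86 in T3R1 and 0.87 to 3.42 in control hearts. Every tested marker of these lists was well above background on all control and T3R1 arrays, while the plasma cell markers Jchain and Tnfrsf17 did not pass the filter on dim probes.

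In T3R1 against T2R1, where Pdia4 was called with 4 controls, 4 of the 6 fibroblast markers were called higher (list median 1.42, sum 544 to 692 in T3R1 and 338 to 363 in T2R1 hearts). Of the 4 macrophage markers, Adgre1 (1.10) and Csf1r (0.41) were higher (sum 52.0 to 61.1 in T3R1 and 37.0 to 43.5 in T2R1). Of the 4 tested plasma cell markers only Sdc1 (0.93) was called higher (sum 1.16 to 1.86 in T3R1 and 1.015 to 1.61 in T2R1). The others lay further below control in T3R1 than in T2R1: Mzb1 (-0.86 and -0.50), Pou2af1 (-0.85 and -0.29) and Cd79a (-0.62 and -0.09). Of 5 tested neutrophil markers, Retnlg (-2.41), Elane (-0.72) and Ly6g (-0.57) were lower (sum 4.04 to 12.8 in T3R1 and 13.02 to 45.5 in T2R1). Of 5 nerve markers, Nefl and Prph were higher (sum 2.01 to 2.61 in T3R1 and 1.47 to 2.11 in T2R1). In T2R1, Nefl was well above background on 0 and Prph on 2 of the 4 arrays. Against control, 4 nerve markers were called lower in T1R1 and 3 in T2R1 (sum 1.34 to 2.25 in T1R1, 1.47 to 2.11 in T2R1 and 2.35 to 3.42 in control hearts), 1 neutrophil marker was higher in T1R1 and 4 in T2R1 (sum 5.80 to 26.4, 13.02 to 45.5 and 4.33 to 9.26 in the same order), 3 of 6 adipocyte markers were lower in T1R1, and 1 of 3 erythroid markers, Slc4a1, was higher in T2R1. In T1R1, Nefl was well above background on 1 array, and Prph and the adipocyte marker Ucp1 on 2 of the 4 arrays each, so their values lay near background there. Without control replicate 1 the adipocyte and erythroid calls were lost, and 4 of the 6 fibroblast markers were called higher in T2R1 against control, where none was with it. The part of all these markers in the results for the members and for the wider genes was not tested.

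Correlations between members were taken across the 16 hearts. Of the 45 pairs of members, 13 had a Pearson correlation with an adjusted p under 0.05 (100000 permutations, adjusted over the 45 pairs), 10 of them positive and 3 negative. Among the 5 members of the chaperone arm other than Herpud1, 7 of the 10 pairs passed, all with a positive r. Hspa5 with Hsp90b1 (r = 0.45, adjusted permutation p = 0.15), Hspa5 with Pdia4 (r = 0.45, adjusted p = 0.15) and Hsp90b1 with Xbp1 (r = 0.53, adjusted p = 0.096) did not pass. All points share the scaling of their array, and arrays of 1 group share a treatment and a slide. Pdia4 and Sdf2l1 had r = 0.87 (permutation p = 6e-05, adjusted 0.0013) and rho = 0.86 (permutation p = 8e-05, adjusted 0.0036), and r was 0.88 without the 2 arrays farthest from the median. Within groups, after the group means were removed, that r was 0.94, and it was 0.96 on slide 1 and 0.95 on slide 2. Hspa5 and Xbp1 had r = 0.84 (permutation p = 9e-05, adjusted 0.0013) and rho = 0.84 (permutation p = 0.00018, adjusted 0.0040), with 0.78 without the 2 farthest arrays, 0.85 on slide 1 and 0.90 on slide 2.

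Herpud1 correlated negatively with 3 of those 5 members, Hsp90b1 (r = -0.68), Pdia4 (r = -0.67) and Sdf2l1 (r = -0.61). Its r with Hspa5 (-0.26, adjusted permutation p = 0.47) and with Xbp1 (-0.44, adjusted p = 0.16) did not pass. With Hsp90b1 the permutation p was 0.0040 (adjusted 0.017), rho was -0.69 (permutation p = 0.0037, adjusted 0.017), and r was -0.66 without the 2 farthest arrays, -0.76 on slide 1 and -0.85 on slide 2. Herpud1 varied with Trib3, at r = 0.78 (permutation p = 0.00037, adjusted 0.0033) and rho = 0.70 (permutation p = 0.0034, adjusted 0.017). That r was 0.67 without the 2 farthest arrays, 0.74 without control replicate 1, 0.92 on slide 1 and 0.46 on slide 2. Atf4 varied with Hspa5 (r = 0.75) and Xbp1 (r = 0.73), while its r was 0.28 with Ddit3, -0.18 with Trib3 and -0.43 with Chac1, none of these 3 past the adjusted threshold.

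**Figure D4:**
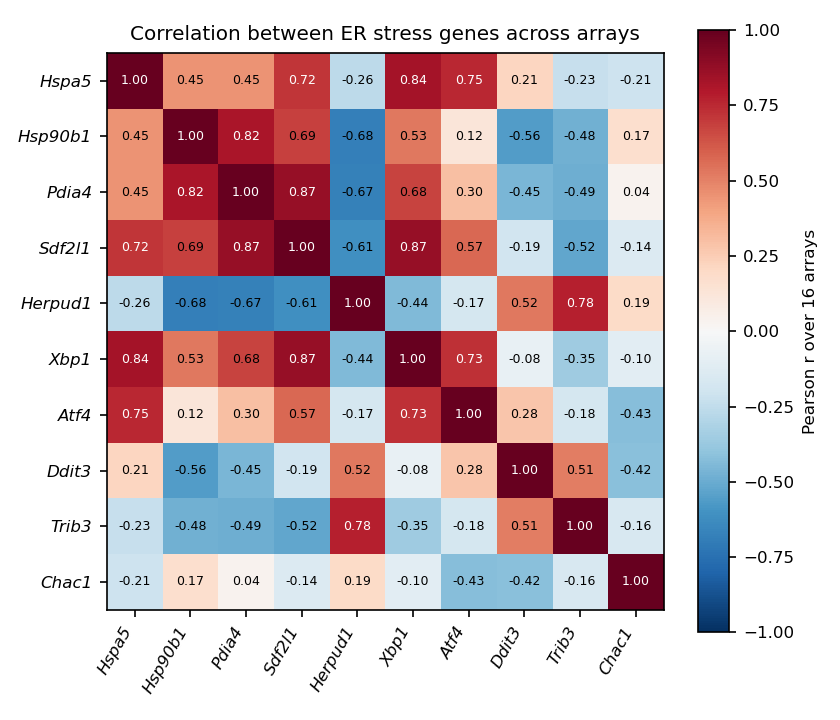
Pearson r between each pair of the 10 ER stress genes over the 16 arrays, coloured from -1 (blue) to 1 (red), with both axes listing the genes. Pdia4, Sdf2l1, Hspa5, Hsp90b1 and Xbp1 have r of 0.45 to 0.87 with each other, and Herpud1 is blue against Hsp90b1 (-0.68), Pdia4 (-0.67) and Sdf2l1 (-0.61).

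Likeness to the mean standardized profile of an arm over the 16 arrays was taken for named genes with a value on every array. The 4 most like the chaperone arm, with Herpud1 included in its mean, were Creld2 (r = 0.94), Manf (0.92), Rpn1 (0.91) and Calr (0.91). Creld2 and Manf are ER proteins known to be induced by ER stress, Rpn1 is a subunit of the oligosaccharyltransferase and Calr is the lectin chaperone calreticulin. The 4 most like the ATF4 arm were Hsp90ab1 (0.86), Ago3 (0.86), Alg11 (0.86) and Eng (0.85). Pairs within that arm had r from -0.43 (Atf4 with Chac1) to 0.51 (Ddit3 with Trib3). None passed the adjusted threshold for Pearson r, so the mean of that arm joins unlike profiles. Of the 4 genes, Hsp90ab1 encodes a cytosolic Hsp90, Ago3 an Argonaute protein, Alg11 a mannosyltransferase of N-glycan assembly and Eng the endothelial receptor endoglin. These likenesses are descriptions of 16 arrays, where all points share the scaling of their array.

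A wider set of 89 genes of the same pathway was counted by role, and 87 were tested. In T3R1 against control 0 of the 87 were called by limma, beside 0.694% of all features, and 24 had an unadjusted p under 0.05 (27.6%, beside 22.4% of all features). Without control replicate 1, 25 were called higher and 6 lower there (35.6%, beside 29.4%). In T1R1 against control 1 was called higher and none lower (1.15%, beside 9.85%), and without that array none higher and 4 lower (4.6%, beside 17.8%). In T2R1 against control 3 were called higher and 4 lower (8.05%, beside 18.4%), and without that array 5 higher and 3 lower (9.2%, beside 24.4%). In T2R1 against T1R1 none was called, beside 0% of all features, and 4 had an unadjusted p under 0.05 (4.6%, beside 7.83%). The median of the 87 was 0.14 in T3R1 against control, beside -0.08 over all features.

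Among the 4 sensors none was called in any comparison with 4 controls, and that of smallest p in T3R1 was Eif2ak3, which encodes PERK, at 0.21 ± 0.12 (adjusted p = 0.29, limma). Without control replicate 1 it was 0.32 and called (adjusted p = 0.0272). Ern1, which encodes IRE1, had the smallest p in T1R1 at -0.21 ± 0.18 and was -0.41 and called without that control (adjusted p = 0.0484), and Atf6b, a relative of ATF6, in T2R1 at -0.22 ± 0.14. Of 17 further chaperones and foldases, 1 was called against control with 4 controls, in T2R1. Canx, the membrane lectin chaperone calnexin, fell by 0.45 ± 0.11 there (adjusted p = 0.0106, limma). This call is lost in a fit of the 2 groups alone (adjusted p = 0.0577). Canx was 5.13, 5.12, 4.65 and 5.07 in T2R1 hearts, against 5.23, 5.55, 5.53 and 5.48 in control hearts, without overlap. In T1R1 the difference of Canx was -0.30 ± 0.11 (adjusted p = 0.0983), and it was -0.37 and called without control replicate 1 (adjusted p = 0.0317). In T3R1 the smallest p was that of P4hb, the prototype protein disulfide isomerase and a subunit of the collagen prolyl hydroxylase, with 4.96, 4.79, 4.74 and 4.52 in T3R1 against 4.53, 3.84, 4.002 and 3.996 in control hearts. Its difference of 0.66 ± 0.16 did not pass (adjusted p = 0.0614) and was 0.81 without control replicate 1 (adjusted p = 0.00169).

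None of 13 degradation genes was called against control with 4 controls. Edem2, a factor of mannose trimming on glycoproteins bound for degradation, had the smallest p in T3R1 at 0.46 ± 0.18 (adjusted p = 0.164, limma), or 0.59 and called without control replicate 1 (adjusted p = 0.0254), and Derl1, part of the export channel, in T1R1 at -0.29 ± 0.11 (adjusted p = 0.103). Of 16 genes of translocation and glycosylation, Sec62, part of the translocon, fell by 0.27 ± 0.08 in T2R1 (adjusted p = 0.0364). That call is lost on leaving out any of 7 of the 16 arrays in turn, control replicate 1 among them (-0.25, adjusted p = 0.0502), with quantile scaling (0.0945) and with the mean of its probes (-0.15, adjusted p = 0.341). Sec11c, of the signal peptidase, had the smallest p in T1R1 at -0.25 ± 0.09, and Stt3a, a catalytic subunit of the oligosaccharyltransferase, in T3R1 at 0.73 ± 0.23 (adjusted p = 0.103), or 0.93 and called without control replicate 1 (adjusted p = 0.00637). None of the 6 genes of the eIF2α kinases, eIF2α and its phosphatase was called against control with 4 controls, and Ppp1r15b, a subunit of that phosphatase, had the smallest p in T3R1 at 0.47 ± 0.18 (adjusted p = 0.149).

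Of 20 tested ATF4 and CHOP targets, 3 were called against control with 4 controls, all in T2R1. Slc7a5, a transporter of large amino acids, was -0.13, -0.28, -0.06 and 0.03 in T2R1, against -1.16, -0.80, -0.81 and -0.87 in control hearts. It rose by 0.80 ± 0.22 or 1.74-fold (adjusted p = 0.0215, limma), and the groups did not overlap. This call is lost without T2R1 replicate 3 or T2R1 replicate 4 and under median scaling (0.41, adjusted p = 0.189). Sesn2, a stress-induced regulator of mTORC1, rose by 0.28 ± 0.09 (adjusted p = 0.0318), a direction that turns under median scaling (-0.10, not called) and a call lost without control replicate 3 or 4 or T2R1 replicate 1 or 4. Cebpg, a partner of ATF4, fell by 0.25 ± 0.08 (adjusted p = 0.0459), a call lost on leaving out any of 12 of the 16 arrays in turn, control replicate 1 among them (-0.24, adjusted p = 0.0532), and without the filter on dim probes (0.0958). In T3R1 the smallest p was that of Mthfd2, a mitochondrial enzyme of folate metabolism, at 1.32 ± 0.38 (adjusted p = 0.0821). Mthfd2 was -0.68, -0.55, -0.75 and -1.10 in T3R1, against -0.82, -2.77, -2.71 and -2.07 in control hearts, where control replicate 1 lay among the T3R1 hearts, and the difference was 1.75 without that control (adjusted p = 0.00105).

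Of 7 cell death genes, Bbc3, which encodes the pro-apoptotic PUMA, fell in T2R1 against control by 0.71 ± 0.15 or 1.64-fold (adjusted p = 0.00443, limma). Bbc3 was -0.19, -0.25, -0.77 and -0.20 in T2R1, against 0.35, 0.32, 0.31 and 0.46 in control hearts, and it was -0.45 ± 0.15 in T1R1 without passing (adjusted p = 0.0662). Bak1, a pore-forming effector of apoptosis, had the smallest p in T3R1 at 0.69 ± 0.21 (adjusted p = 0.093), and was 0.90 and called without control replicate 1 (adjusted p = 0.00225). Of 4 other ER membrane-bound transcription factors, Creb3l1 (OASIS), known for secretory and collagen-producing cells, rose in T1R1 by 0.38 ± 0.11 (adjusted p = 0.0475) and in T2R1 by 0.68 ± 0.11 (adjusted p = 0.00113). Creb3l1 was 1.31, 1.44, 1.65 and 1.503 in T1R1, 1.81, 1.56, 1.82 and 1.93 in T2R1, and 0.84, 1.34, 1.06 and 1.15 in control hearts. The T1R1 call is lost on leaving out any of 13 of the 16 arrays in turn, control replicate 1 among them (0.29, adjusted p = 0.0669), without the filter on dim probes (0.0842) and in a fit of the 2 groups alone (0.172). Under median scaling the difference was -0.057 in T1R1, and neither call held, while group cannot be told apart from slide in both comparisons. Nfe2l1, Creb3 and Creb3l2 were not called against control with 4 controls, and Creb3 in T3R1 was 0.36 with 4 controls and 0.46 without control replicate 1 (adjusted p = 0.0228).

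Within slide 2, in T2R1 against T1R1, the genes of smallest p in their lists were Creb3l1 (0.30 ± 0.11), Ero1a (-0.69 ± 0.23), an oxidase that recharges protein disulfide isomerase, Sec63 (-0.26 ± 0.09), a translocon partner of BiP, Edem2 (-0.37 ± 0.18), Atf5 (-0.16 ± 0.08), Bbc3 (-0.26 ± 0.15), Atf6b (-0.22 ± 0.14) and Eif2s1 (0.10 ± 0.14), which encodes eIF2α. None passed, and their adjusted p-values ran from 0.636 to 0.862 (limma). All hearts of T2R1 were below all hearts of T1R1 for Ero1a, at -3.21, -3.02, -3.52 and -3.003 in T2R1 and -2.94, -2.62, -2.52 and -1.89 in T1R1 hearts, and 6.95% of all features had groups that did not overlap. Ero1a was dim, and it dropped out where probes had to be well above background on all 16 arrays. Others of smallest p did not pass either: Eif2ak4, which encodes the amino acid sensor GCN2, at -0.20 ± 0.10 in both T1R1 and T2R1 against control, Slc7a5 at 0.67 ± 0.22 in T1R1, and Derl1 at -0.22 ± 0.11 in T2R1.

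**Figure D5:**
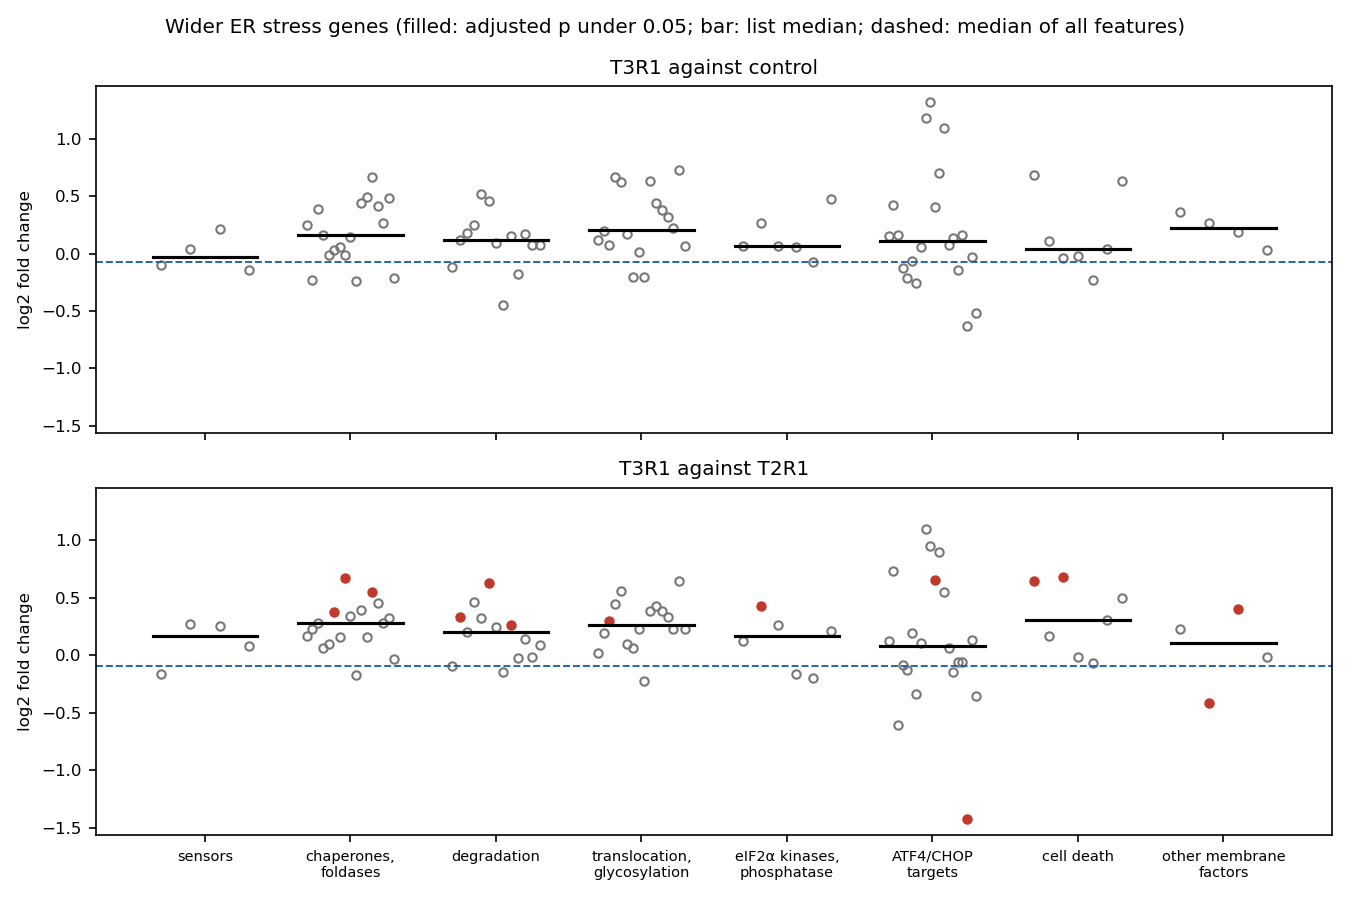
Log2 fold change (vertical axis) of 87 wider ER stress genes by role, in T3R1 against control (top) and T3R1 against T2R1 (bottom). Filled points have an adjusted p under 0.05, bars are list medians and the dashed line is the median of all features (-0.08 at the top, -0.09 at the bottom), with no filled point at the top and 14 at the bottom.

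Against the shorter exposures, which lay on the other slide, more of the wider genes were called in T3R1. Of the 87, 13 were called higher (14.9%, beside 7.65% of all features) and 3 lower (3.45%, beside 15.2%) against T1R1. Against T2R1, 12 were called higher (13.8%, beside 6.59%) and 2 lower (2.3%, beside 20.4%). In both, the share called higher was above that of all features and the share called lower below it. Without control replicate 1, 25 were called higher and 5 lower against T1R1 (34.5% in all, beside 31.3%), and 28 higher and 2 lower against T2R1 (34.5%, beside 36.6%). P4hb, for example, was 0.63 ± 0.16 higher than in T1R1 (adjusted p = 0.0136, limma), Derl1 0.41 ± 0.11 higher (adjusted p = 0.0155) and Slc7a5 lower by a log2 difference of -1.30 ± 0.22 (adjusted p = 0.00107). These 3 were chosen after their values were seen. With the mean of their probes, Derl1 was 0.16 (adjusted p = 0.143, limma) and Slc7a5 -0.50 (adjusted p = 0.125), and neither call held. The call of P4hb was lost with the authors' values (0.51, adjusted p = 0.0535). Under median scaling the median of all features moved to 0.33 in T3R1 against T1R1 and to -0.44 in T1R1 against control, beside -0.07 and -0.01 in the scaling used, so directions across slides are relative to that scaling.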

How the data were processed

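Total RNA of 16 hearts was measured on 1-colour Agilent arrays of build mm9, read with Feature Extraction 10.7.3.1, per the file headers. The deposited intensity values were background-subtracted by that software, per the file headers, and not scaled between arrays. The authors' deposited series table holds log2 values with the same median (6.104) in every column. Genes were named from the deposited files, updated where an accession was in the RefSeq table. The log2 intensity minus the 75th percentile of each array was taken, outlier spots were left out, and spots of 1 probe were averaged. Probes were kept (31390 of 55681) where some group had all 4 of its arrays well above background, and the kept probe of highest mean stood for a gene. This left 22763 features, of which 102 lacked a value on at least 1 array.

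Groups were compared with limma 3.58.1 in R 4.3.3 (1 mean per group, 6 contrasts, 2-sided moderated tests, Benjamini-Hochberg over all features, threshold 0.05). No depth applies to arrays, and 4 arrays per group limit the precision. All members were well above background and unsaturated on all 16 arrays. The alternatives changed background correction (normexp, offset 50), scaling, probe filter, probe choice, samples, prior, weights and block. All members were named, and of the wider lists up to 3 genes of smallest p that passed in each contrast with control and in T2R1 against T1R1, or the 1 of smallest p where none did. The members, lists and tests were chosen with earlier results of these data known. Replicate numbers were not taken to pair the hearts. Of 24 same-number pairs of arrays, 9 correlated over 0.1 (range -0.32 to 0.39). Without pairs of unlike number beside it, this count cannot settle whether the numbers pair the hearts. The code was tested on simulated data.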

Additional observations from a re-analysis of the deposited data

Results flagged for a closer look

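In 4 of the 40 sets of 4 hearts (10 genes in 4 groups), 1 heart lay far from the other 3 of its group, where chance alone flags about 1 in 20 sets. In control replicate 1, Hsp90b1 was 5.66, against 5.20 to 5.27 in the other controls, and Sdf2l1 was 1.53, against 0.51 to 0.68. In T1R1 replicate 2, Pdia4 was 1.29, against 0.58 to 0.69 in the other T1R1 hearts. In T3R1 replicate 4, Atf4 was 5.62, against 5.96 to 6.03 in the other T3R1 hearts.

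Several of the genes named above differed between stress groups in a direct test of the difference (limma, adjusted p under 0.05). Each such comparison also sets slide 1 against slide 2. Of the 87 wider genes, 14 were called in T3R1 against T2R1 and 16 against T1R1, and only those named above are listed. Against T2R1, T3R1 differed in Pdia4 (0.73), Ero1a (0.67), P4hb (0.55), Derl1 (0.33), Edem2 (0.63), Sec11c (0.30), Bak1 (0.65), Bbc3 (0.68), Slc7a5 (-1.43) and Creb3l1 (-0.42). Against T1R1, T3R1 differed in P4hb (0.63), Derl1 (0.41), Sec11c (0.33), Bak1 (0.75), Slc7a5 (-1.30) and Atf5 (-0.25). All values are log2 differences. Atf5 is a transcription factor induced by ATF4. The calls of Pdia4 and Ero1a against T2R1 are each lost on leaving out any of 11 of the 16 arrays in turn. Other calls against T2R1 are lost on leaving out any of 6 arrays (Derl1, Bak1), 4 (Sec11c) or 3 (P4hb, Edem2). Against T1R1 the numbers are 4 (Atf5), 2 (Bak1) and 1 (Derl1, Sec11c). The other listed calls hold on leaving out each array. With the mean of the probes, the calls of Derl1 and Slc7a5 are lost in both comparisons. Under normexp, Ero1a was 0.19 and not called (adjusted p = 0.255, limma).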

How the results depend on the processing

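The 60 differences of the members (10 genes in 6 comparisons) were recomputed under 28 alternatives, and 46 of them kept their side of the threshold in all. Of 1680 values 39 newly passed, 14 lost their call, all of Pdia4 in T3R1 against T2R1, and no called difference changed sign, while 115 values that never passed did. Counts of called genes follow, of the 10 members and then of the 87 wider genes. With array weights (0.144 for control replicate 1) T1R1, T2R1 and T3R1 against control gave 1, 3 and 3 members and 6, 20 and 35 wider genes, and T3R1 against T1R1 and T2R1 gave 29 and 36 wider genes. Without control replicate 1 and T1R1 replicate 1 together they gave 2, 2 and 3 members and 9, 9 and 30 wider genes against control, and 30 wider genes in T3R1 against T2R1. Median scaling gave 3 members in T1R1 and T2R1 against control, all lower, 3 in T3R1 against T1R1 and 2 against T2R1, with 33, 32, 50 and 46 wider genes. It turned the sign of Creb3l1 in T1R1 (-0.057) and Sesn2 in T2R1 against control (-0.10) and of Atf5 in T3R1 against T1R1 (0.15), none of them called there. Quantile scaling gave 3 wider genes in T1R1 and 0 members in T3R1 against T2R1, and normexp gave 3 wider genes in T1R1 and 1 member in T3R1 against T1R1. The authors' values gave 6 wider genes in T1R1 and 1 in T3R1 against control, and 1 member in T3R1 against T1R1. Without the filter 0 and 4 wider genes were called in T1R1 and T2R1 against control, and 0 members and 9 wider genes in T3R1 against T2R1. Fits of only the groups compared gave 3 wider genes in T2R1 against control, 1 member in T3R1 against T1R1 and 32 wider genes in T3R1 against T2R1. A prior with trend, or probes above background on all 16 arrays, each gave 1 wider gene in T3R1 against control. With the replicate number as a block 0 members were called in T3R1 against T2R1 (Pdia4, adjusted p = 0.0653, limma). Over all 22763 features the called counts were 2242, 4187 and 158 in T1R1, T2R1 and T3R1 against control, 5212 and 6134 in T3R1 against T1R1 and T2R1, and ranged over the alternatives from 975 to 10749, 2605 to 9160, 2 to 7693, 3502 to 8797 and 4217 to 9235, with 0 in T2R1 against T1R1 throughout. The share of these calls that were higher was 78.6%, 80.5%, 72.8%, 33.4% and 24.4%, against 5.79%, 15.2%, 62.5%, 85.3% and 71.5% under median scaling, 52.3%, 61.7%, 74.0%, 46.4% and 37.5% under quantile scaling, and 46.0%, 56.7%, 67.1%, 47.6% and 41.5% in the authors' values. The causes were not tested.

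On leaving out each array in turn, the called members ranged from 0 to 1 in T1R1, 0 to 2 in T2R1 and 0 to 3 in T3R1 against control, 0 to 0 in T2R1 against T1R1, and 0 to 1 in T3R1 against T1R1 and against T2R1. The wider genes ranged from 0 to 4, 3 to 8, 0 to 31, 0 to 0, 7 to 30 and 5 to 30 in the same order. The highest count of each comparison with control came without control replicate 1. For the members in T1R1, the fit without control replicate 2 tied with it at 1, there Chac1.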
